A study of Homo sapiens with 12 samples.

Results

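The transcripts of 10 transcription factors of the myeloid lineage were measured: SPI1, CEBPA, CEBPB, CEBPD, CEBPE, IRF8, GFI1, RUNX1, MYB and KLF4. Each was taken as the row of the deposited table of raw read counts whose Ensembl gene carries that symbol, which gave 10 of 58051 rows, and all 10 were among the 14214 genes with enough reads to be tested. The cells were MV4-11, a human acute myeloid leukaemia line of monocytic type with a rearranged KMT2A gene and activating FLT3-ITD mutation. The 4 groups of 3 libraries each were treated for 6 h with 0.1% DMSO, the vehicle, or with BSJ-03-123, YKL-06-102 or palbociclib at 200 nM. Palbociclib inhibits the cell-cycle kinases CDK4 and CDK6, and the other compounds are, in the submitters' words, CDK6-specific phthalimide conjugates. All 4 groups are the same cell line, so the values describe a single leukaemia. The labels do not say whether the replicates were separate cultures, so a p-value here reflects library-to-library spread that may be technical.

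Myeloid cells are specified by a small circuit of DNA-binding proteins. SPI1 encodes PU.1, an ETS-family factor whose dose separates myeloid from lymphoid and stem cell fates, and it works at many genes together with the C/EBP proteins and IRF8. RUNX1 and MYB act mainly in stem and progenitor cells, GFI1 is a repressor that favours granulocytes, and KLF4 is linked to monocyte differentiation.

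Library totals ranged from 18764307 to 25539858 reads. DMSO replicate 2 stood apart from the other DMSO libraries: chi-square per degree of freedom of the read counts (1 for pure sampling noise) was 5.41 and 8.18 for its 2 pairs, against at most 2.76 for any other pair of replicates. The cells had some of the 11 markers listed for a monocytic leukaemia line. LYZ lay between 632 and 859 and CD33 between 169 and 215 CPM (reads scaled to a common library size with edgeR's TMM factors). FLT3 (381 to 464), CD4 (280 to 342), CSF1R (60.8 to 146) and KIT (37.7 to 51.0) were also present. ITGAM (8.95 to 11.1) and MPO (6.49 to 10.4) were low. CD68 lay between 0.479 and 0.923 CPM, and CD14 and CD34 reached at most 0.469 and 0.0883. The 11 markers of a monocytic leukaemia line, CSF1R among them, summed to 1602 to 1654 CPM with DMSO, 1751 to 1784 with BSJ-03-123, 1966 to 2004 with YKL-06-102 and 1779.8 to 1841 with palbociclib. The summed level of 9 lymphoid markers was 4.72 to 5.73 CPM with DMSO, 4.07 to 5.17 with BSJ-03-123, 2.94 to 3.73 with YKL-06-102 and 4.06 to 4.59 with palbociclib, with CD2 and MS4A1 at 0. The 9 erythroid and megakaryocytic markers summed to 37.3 to 42.8 CPM, with HBB, HBG1 and PF4 at 0, and the 9 stromal and epithelial markers to 16.5 to 22.8 CPM, with COL3A1, DCN and EPCAM at 0. The part of these cell types in the results was not tested.

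Levels of different genes were compared per length, as CPM per kb of exon, because a longer transcript gives more reads. With DMSO, SPI1 stood at 152 ± 10.3 CPM per kb (mean ± SD, n = 3) and CEBPA, whose protein is the C/EBP needed to form granulocyte and monocyte progenitors, at 141 ± 12.03 CPM per kb. The libraries of these 2 genes overlapped, so their order with DMSO is not fixed. MYB followed at 113 ± 4.11, IRF8 at 104 ± 3.28 and GFI1 at 98.3 ± 1.91 CPM per kb, each group of DMSO libraries lying below the one before. RUNX1 was at 22.6 ± 1.06 CPM per kb, and its exons, merged over all annotated transcripts as for every gene here, sum to 15.6 kb. Before division by length, MYB was highest with DMSO at 619.9 CPM, then IRF8 at 536.6 and CEBPA at 371.8. RUNX1 was at 352.5, GFI1 at 324.4 and SPI1 at 315 CPM. The places of these genes, SPI1 and CEBPA at the top included, therefore depend on the exon lengths used. CEBPD at 9.87 ± 0.913 and CEBPB at 9.75 ± 1.43 CPM per kb, the C/EBP proteins of inflammatory responses, overlapped. CEBPE, the C/EBP of late granulocyte maturation, was at 1.17 ± 0.151 and KLF4 at 0.368 ± 0.0522 CPM per kb. The 10 members therefore spanned a wide range, and those at the bottom rest on few reads: CEBPE had 29 to 72 reads a library and KLF4 22 to 67, against at least 5532 for each of SPI1, CEBPA, IRF8, GFI1, RUNX1 and MYB. The order per length was the same with the compounds at its top and bottom, but with YKL-06-102 IRF8 at 116 ± 0.520 CPM per kb lay above MYB at 105 ± 1.46, and the libraries of these 2 did not overlap.

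**Figure D1:**
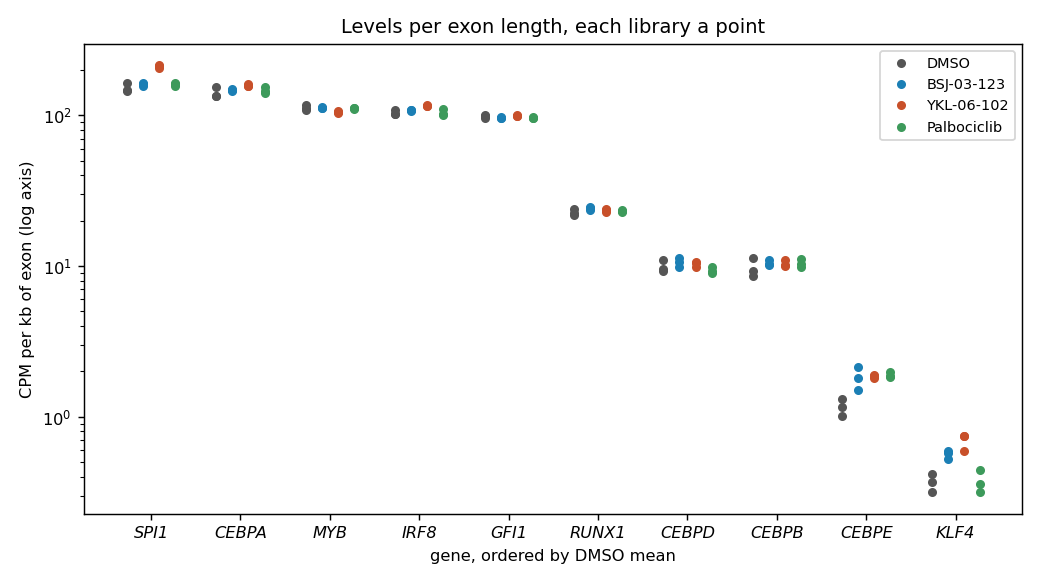
Level of each member in CPM per kb of exon (log axis), genes ordered by their DMSO mean, with a point for each library coloured by group. On this scale, which depends on the exon lengths used, SPI1 and CEBPA lie at the top, at 152 and 141 CPM per kb with DMSO, and KLF4 at the bottom at 0.368.

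Promoters from RefSeq (GRCh38.p14) were used for 8 of the 10 members, as 12 windows of 250 bases before an annotated start. No window of SPI1 or CEBPD was used, so nothing is said of motifs in their promoters. The number 8 counts the members used and not those that RefSeq holds. Both strands were searched for 7 short motifs: GAGGAA (SPI1 and other ETS factors), TGTGGT (RUNX), TTGCNNAA (C/EBP), TTTGGCG (E2F), CAACNG (MYB), CCACCC (KLF) and the ETS-IRF composite motif. Over 35116 windows of the same length, 23.6%, 11.0%, 9.05%, 1.59%, 27.0%, 31.3% and 2.41% hold them. GAGGAA can overlap the composite motif. Shown are the windows of CEBPE and KLF4, which rose, and MYB, which fell with YKL-06-102, 5′ to 3′ on the gene's strand, with capitals marking GAGGAA or TTTGGCG. CEBPE is chr14:23119256-23119505 on the minus strand, KLF4 chr9:107489770-107490019 on the minus strand and MYB chr6:135181058-135181307 on the plus strand.
CEBPE: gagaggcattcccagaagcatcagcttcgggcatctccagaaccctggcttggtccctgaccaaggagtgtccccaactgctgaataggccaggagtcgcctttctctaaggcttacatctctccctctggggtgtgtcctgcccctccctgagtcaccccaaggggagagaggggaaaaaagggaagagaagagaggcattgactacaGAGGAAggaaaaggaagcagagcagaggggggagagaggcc
KLF4: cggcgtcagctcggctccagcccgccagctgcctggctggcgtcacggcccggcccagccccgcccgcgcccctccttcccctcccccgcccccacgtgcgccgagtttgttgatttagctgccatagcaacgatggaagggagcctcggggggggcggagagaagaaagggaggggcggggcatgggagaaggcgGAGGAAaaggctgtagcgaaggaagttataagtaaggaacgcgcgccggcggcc
MYB: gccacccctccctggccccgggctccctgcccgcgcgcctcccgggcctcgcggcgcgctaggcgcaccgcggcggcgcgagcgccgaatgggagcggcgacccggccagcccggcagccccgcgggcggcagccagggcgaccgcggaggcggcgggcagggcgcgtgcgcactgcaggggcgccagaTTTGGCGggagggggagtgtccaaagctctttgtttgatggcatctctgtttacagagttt
GAGGAA begins 41 bases before the start in CEBPE and 54 bases before it in KLF4, and it is also present in RUNX1 and in 1 window of GFI1. MYB holds TTTGGCG 61 bases and CCACCC 249 bases before its start, and CEBPE also holds CAACNG 176 bases before its start. Further matches lay in windows of GFI1 (RUNX, C/EBP and KLF), IRF8 (RUNX and MYB), CEBPB (MYB and KLF) and RUNX1 (KLF). The windows of CEBPE and KLF4 lie within the gene spans that GENCODE 29 gives. Each match is a description of these letters.

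SPI1 (ENSG00000066336, chr11:47354860-47378576, minus strand, GRCh38) rose with YKL-06-102, and its values with the other compounds did not pass the test. Its levels were 305, 339.5 and 300.2 CPM with DMSO, 335, 337 and 325 with BSJ-03-123, 323, 340.5 and 334 with palbociclib, and 428, 439.5 and 444 with YKL-06-102. The 3 YKL-06-102 libraries were above all 9 others, and the DMSO libraries overlapped those of BSJ-03-123 and palbociclib. The log2 fold change against DMSO was 0.47 ± 0.037 (SE) with YKL-06-102, an increase of 38.6%, at an adjusted p of 2.19e-11 (edgeR's quasi-likelihood test, Benjamini-Hochberg adjustment over 14214 genes, threshold 0.05, used for every adjusted p here). The values for BSJ-03-123, 0.075 ± 0.037 (adjusted p = 0.138), and palbociclib, 0.076 ± 0.037 (adjusted p = 0.118), did not pass. Against DMSO replicates 1 and 3 alone, which were the lower ones, both passed at 0.13, and with trends of GC content removed they passed at 0.10 and 0.12. In RNA from whole cultures, a change in the share of cells of a type and a change in RNA per cell cannot be told apart.

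IRF8 (ENSG00000140968, chr16:85898803-85922609, plus strand), an interferon regulatory factor that favours monocytes and dendritic cells over granulocytes, also rose with YKL-06-102, by a smaller amount. Its levels were 528, 556 and 525 CPM with DMSO, 561, 562 and 553 with BSJ-03-123, 525, 522 and 569 with palbociclib, and 602, 596 and 599 with YKL-06-102. All 3 YKL-06-102 libraries were above the rest, and palbociclib's spread over the DMSO range. The log2 fold change with YKL-06-102 was 0.16 ± 0.033 (adjusted p = 0.000313), an increase of 11.6%. With BSJ-03-123 it was 0.058 ± 0.033 (adjusted p = 0.207), which passed at 0.082 without DMSO replicate 2 and at 0.075 with GC trends removed. With palbociclib it was 0.0048 ± 0.033 (adjusted p = 0.933), with a 95% interval of -0.063 to 0.072.

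CEBPA (ENSG00000245848, chr19:33299934-33302564, minus strand) rose with YKL-06-102. Its levels were 356, 408 and 351 CPM with DMSO, 379, 394 and 388 with BSJ-03-123, 371, 379.9 and 404 with palbociclib, and 428, 412 and 415 with YKL-06-102. DMSO replicate 2 was far above the other 2 DMSO libraries and just below the YKL-06-102 range, so those groups did not overlap. The log2 fold change with YKL-06-102 was 0.17 ± 0.042 (adjusted p = 0.00191), an increase of 12.4%, and it was 0.26 without DMSO replicate 2. Those with BSJ-03-123, 0.056 ± 0.042 (adjusted p = 0.352), and palbociclib, 0.048 ± 0.042 (adjusted p = 0.421), did not pass. Without DMSO replicate 2 they did, at 0.13 and 0.12, and likewise with GC trends removed, at 0.089 and 0.095. CEBPA shares 659 and 482 exon bases with the antisense genes AC008738.3 and AC008738.5, and whether the counting used strand is not given in the sources used here; these had a mean of 4.25 and 52.2 reads a library beside 8641 for CEBPA.

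CEBPE (ENSG00000092067, chr14:23117304-23119616, minus strand) was the member that rose with all 3 compounds. Its levels were 2.04, 1.82 and 1.57 CPM with DMSO, 2.81, 2.35 and 3.30 with BSJ-03-123, 2.84, 2.92 and 3.08 with palbociclib, and 2.95, 2.90 and 2.80 with YKL-06-102. Every treated library was above every DMSO library, and the 3 compounds' ranges overlapped. The log2 fold changes were 0.64 ± 0.173 for BSJ-03-123 (adjusted p = 0.00537), 0.67 ± 0.168 for YKL-06-102 (adjusted p = 0.00188) and 0.70 ± 0.169 for palbociclib (adjusted p = 0.0016), increases of 55.4%, 58.8% and 62.1%. The value for BSJ-03-123 was 0.50 and no longer passed without that group's replicate 3, its highest library. The promoter window of CEBPE holds GAGGAA and CAACNG, motifs that 23.6% and 27.0% of all windows hold.

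KLF4 (ENSG00000136826, chr9:107484852-107490482, minus strand) rose with YKL-06-102 and BSJ-03-123 from a very low level. Its levels were 1.152, 1.53 and 1.36 CPM with DMSO, 2.11, 1.91 and 2.17 with BSJ-03-123, 1.30, 1.63 and 1.16 with palbociclib, and 2.74, 2.73 and 2.18 with YKL-06-102. The libraries of the 2 conjugates were all above those of DMSO and palbociclib, and every YKL-06-102 library was above every BSJ-03-123 library. The log2 fold change was 0.90 ± 0.192 (adjusted p = 0.000287) with YKL-06-102, an increase of 86.9%. With BSJ-03-123 it was 0.60 ± 0.203 (adjusted p = 0.0253), which did not pass in DESeq2 (0.60) or without DMSO replicate 1 (0.49), DMSO replicate 3 (0.59), BSJ-03-123 replicate 1 (0.58) or BSJ-03-123 replicate 3 (0.55). With palbociclib it was 0.0053 ± 0.216 (adjusted p = 0.993), and the interval of -0.44 to 0.45 rests on 22 to 38 reads a library.

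CEBPB (ENSG00000172216, chr20:50190734-50192689, plus strand) and CEBPD (ENSG00000221869, chr8:47736909-47739086, minus strand) passed the test with no compound. CEBPB was at 18.3, 22.2 and 16.8 CPM with DMSO and between 19.3 and 21.8 CPM in all 9 treated libraries, within the DMSO range. Its log2 fold changes were 0.085 ± 0.079, 0.079 ± 0.078 and 0.079 ± 0.078 in the order BSJ-03-123, YKL-06-102 and palbociclib (adjusted p of 0.471, 0.463 and 0.483). Replicate 2 was the highest DMSO library, and without it the 3 values passed at 0.22, 0.24 and 0.21. CEBPB also shares 231 exon bases with the antisense gene CEBPB-AS1, which had a mean of 14.0 reads a library beside 444 for CEBPB. CEBPD was at 20.1, 23.8 and 20.7 CPM with DMSO and between 19.6 and 24.7 CPM in the 9 treated libraries, which overlapped DMSO with each compound. Its log2 fold changes were 0.10 ± 0.068, 0.056 ± 0.067 and -0.080 ± 0.068 with BSJ-03-123, YKL-06-102 and palbociclib (adjusted p of 0.297, 0.558 and 0.405). The value with BSJ-03-123 passed at 0.19 without DMSO replicate 2 and at 0.16 with GC trends removed.

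MYB (ENSG00000118513, chr6:135181315-135219173, plus strand), which keeps progenitors dividing, was the member that fell, with YKL-06-102. Its levels were 615, 600.1 and 644 CPM with DMSO, 617, 619.8 and 617 with BSJ-03-123, 618, 618 and 609 with palbociclib, and 577, 585 and 569 with YKL-06-102. The YKL-06-102 libraries were below all 9 others, and those of BSJ-03-123 and palbociclib lay within the DMSO range. The log2 fold change was -0.10 ± 0.030 (adjusted p = 0.00757) with YKL-06-102, a change of -6.88%. This small difference no longer passed with library totals in place of TMM (-0.066), with no filter on low counts (-0.073), in a fit of these 2 groups (-0.083), with GC trends removed (-0.048), or without DMSO replicate 3 (-0.075), YKL-06-102 replicate 1 (-0.084) or YKL-06-102 replicate 3 (-0.074). With BSJ-03-123 and palbociclib it was -0.0038 ± 0.030 (adjusted p = 0.947) and -0.011 ± 0.030 (adjusted p = 0.823). MYB shares 103 exon bases with the antisense gene MYB-AS1, which had a mean of 0.667 reads a library.

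RUNX1 (ENSG00000159216, chr21:34787801-36004667, minus strand) passed the test with BSJ-03-123. Its levels were 348, 338 and 371 CPM with DMSO, 368, 377 and 383 with BSJ-03-123, 356, 360.2 and 364 with palbociclib, and 371, 357 and 369 with YKL-06-102. DMSO replicate 3 was above the lowest BSJ-03-123 library, so the groups overlapped. The log2 fold change with BSJ-03-123 was 0.095 ± 0.033 (adjusted p = 0.0299), an increase of 6.79%. It did not pass in a fit of these 2 groups (0.092), nor without DMSO replicate 1 (0.081), DMSO replicate 2 (0.063), BSJ-03-123 replicate 2 (0.086) or BSJ-03-123 replicate 3 (0.077). With YKL-06-102 it was 0.054 ± 0.033 (adjusted p = 0.212), which passed at 0.090 without DMSO replicate 3, at 0.091 with library totals and at 0.082 with GC trends removed. With palbociclib it was 0.031 ± 0.033 (adjusted p = 0.505).

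GFI1 (ENSG00000162676, chr1:92474762-92486876, minus strand) passed the test in 0 of the 6 comparisons, in edgeR as at an unadjusted p under 0.05 and in DESeq2 and limma-voom. It was at 318, 325 and 330.2 CPM with DMSO, 315, 318 and 319.9 with BSJ-03-123, 315, 315 and 322 with palbociclib, and 327, 329 and 330.2 with YKL-06-102. The log2 fold changes were -0.031 ± 0.029 (95% interval -0.090 to 0.028), 0.018 ± 0.028 (-0.040 to 0.077) and -0.031 ± 0.029 (-0.090 to 0.027), none past the test.

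**Figure D2:**
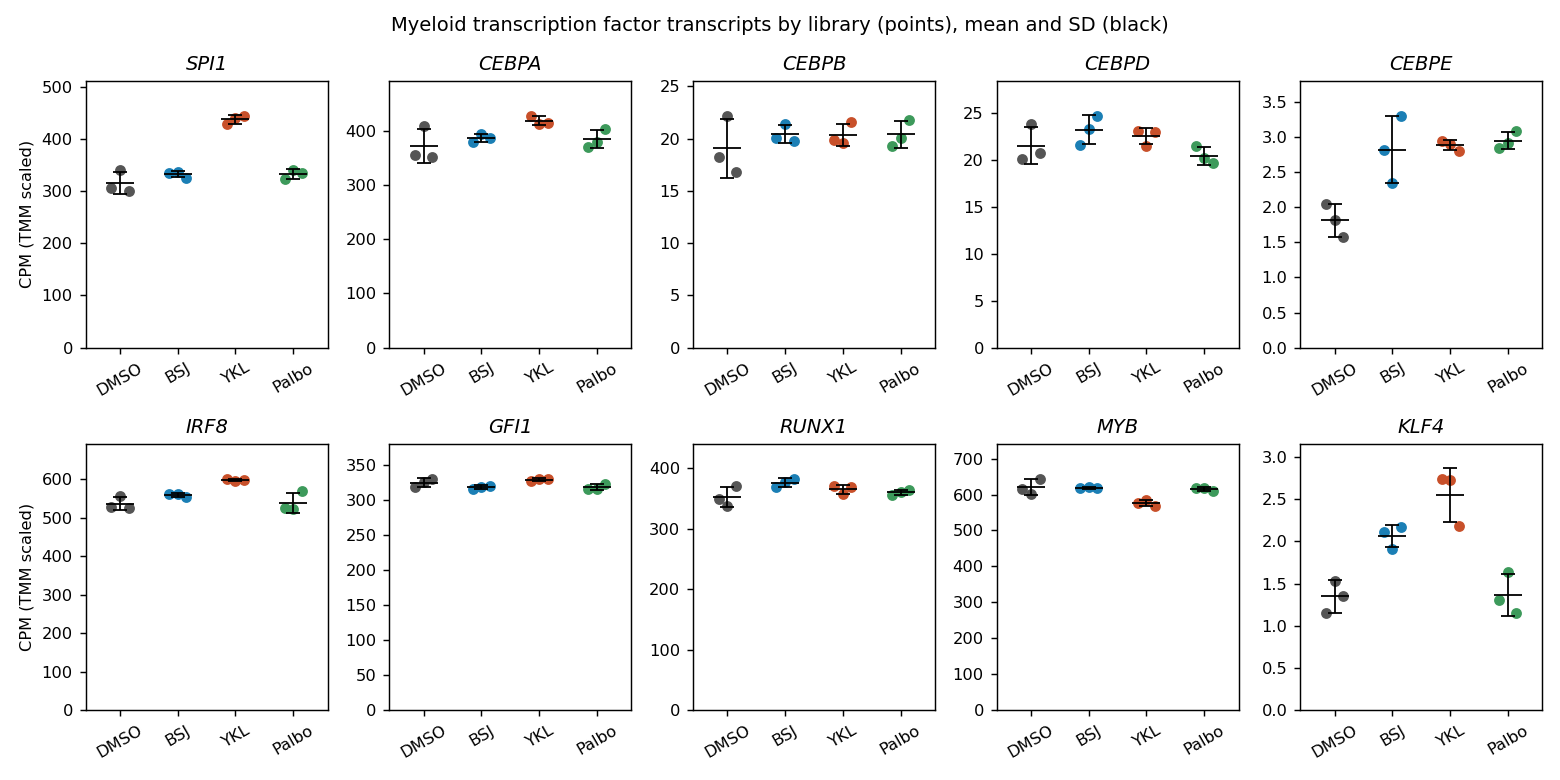
CPM of each member in each of the 12 libraries (points), by group, with the mean and SD of 3 libraries, each panel with its own axis. SPI1 with YKL-06-102 sits between 428 and 444 CPM, above the 9 other libraries, and CEBPE is higher in all 9 treated libraries than with DMSO.

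The counts against DMSO are read beside the share of all tested genes. With YKL-06-102, 5 members rose and 1 fell, against 36.9% of the 14214 genes called (15.6% higher and 21.3% lower), and 6 of the 10 had libraries that did not overlap those of DMSO, against 44.7% of all genes. BSJ-03-123 gave 3 members called, all higher, against 28.1% of all genes called (12.4% higher and 15.7% lower), a share near the background, and 2 of 10 did not overlap against 37.2%. Palbociclib gave 1 member called, CEBPE, against 33.3% of genes called (15.6% higher and 17.6% lower), and 1 of 10 did not overlap against 41.7%. The median log2 fold changes of the 10 members were 0.080, 0.12 and 0.018 for BSJ-03-123, YKL-06-102 and palbociclib, and over all tested genes it was 0.0075, -0.017 and 0.014. The 3 comparisons share the DMSO libraries. SPI1, CEBPA, IRF8, CEBPE and KLF4 passed with YKL-06-102 in every alternative computed, as did CEBPE with palbociclib, and so did SPI1, IRF8 and KLF4 between YKL-06-102 and palbociclib and SPI1 between the 2 conjugates.

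**Figure D3:**
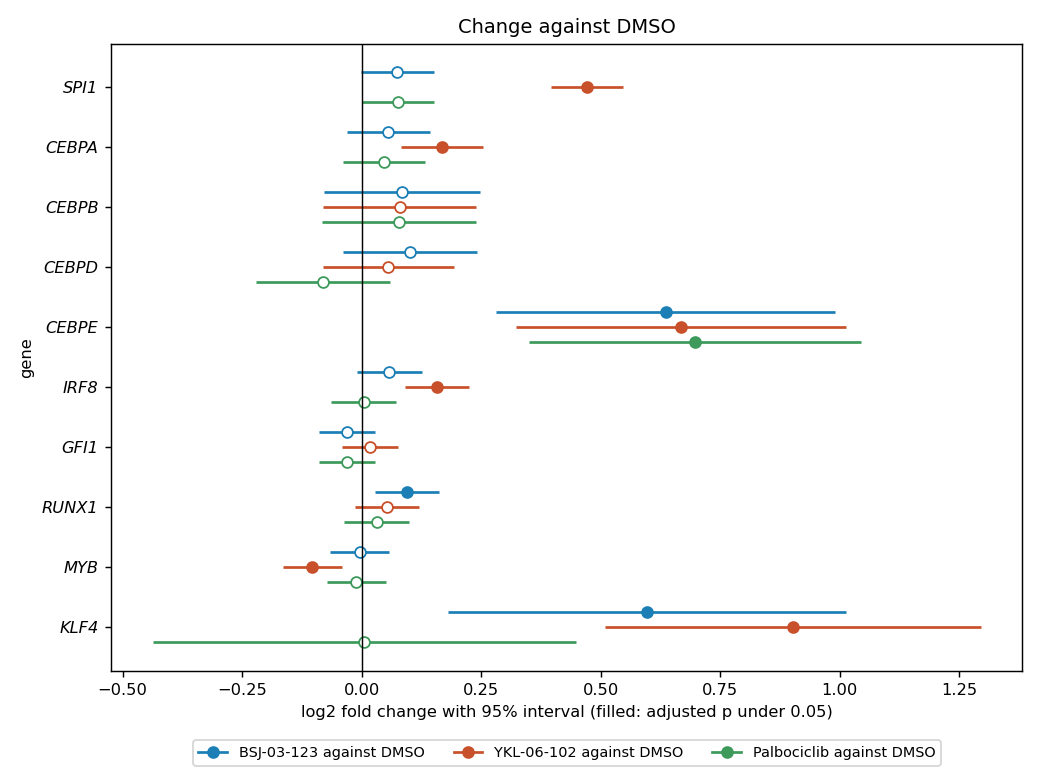
Log2 fold change of each member against DMSO with its 95% interval for the 3 compounds, filled where the adjusted p is under 0.05. SPI1 with YKL-06-102 stands at 0.47, apart from 0.075 and 0.076 with the other compounds, whereas the 3 values of CEBPE lie together between 0.64 and 0.70.

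The 3 pairs of compounds were compared at the same dose and time, each gene's p adjusted over all tested genes of the pair and not over the 3 pairs. For YKL-06-102 against palbociclib, 4 members were higher and 1 lower, against 24.7% of all genes called (12.7% higher and 11.9% lower), and 7 of 10 did not overlap against 41.0%. SPI1 was higher by 0.40 ± 0.036 on the log2 scale (adjusted p = 1.45e-09), a difference of 31.5%. KLF4 was higher by 0.90 ± 0.186 (adjusted p = 0.000405) and IRF8 by 0.15 ± 0.033 (adjusted p = 0.000726). CEBPA was higher by 0.12 ± 0.042 (adjusted p = 0.0331), which did not pass with GC trends removed (0.064) or without YKL-06-102 replicate 1 (0.13), palbociclib replicate 1 (0.11) or palbociclib replicate 2 (0.13). MYB differed by -0.092 ± 0.030 (adjusted p = 0.0238), which was lost with DESeq2 size factors (-0.080), with no filter on low counts (-0.083), and without YKL-06-102 replicate 1 (-0.070), 2 (-0.079) or 3 (-0.060) or palbociclib replicate 1 (-0.068) or 2 (-0.066). CEBPE differed by -0.029 ± 0.146 (adjusted p = 0.916, interval -0.33 to 0.27).

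The 2 conjugates differed in SPI1. For BSJ-03-123 against YKL-06-102, 1 member was higher and 2 were lower, against 20.1% of all genes called (9.74% higher and 10.4% lower), and 6 of 10 did not overlap against 35.6%. SPI1 differed by -0.40 ± 0.036 on the log2 scale (adjusted p = 2.27e-09), a change of -24.0%. IRF8 differed by -0.10 ± 0.033 (adjusted p = 0.0294), a call lost with GC trends removed (-0.074) and without BSJ-03-123 replicate 2 (-0.11) or 3 (-0.096). MYB was higher by 0.099 ± 0.030 (adjusted p = 0.0184), and this call was lost with no filter on low counts (0.083) and without any 1 of the 6 libraries compared, BSJ-03-123 replicates 1, 2 and 3 (0.078, 0.091 and 0.097) and YKL-06-102 replicates 1, 2 and 3 (0.076, 0.086 and 0.066). CEBPA differed by -0.11 ± 0.042 (adjusted p = 0.0579), which passed with DESeq2 size factors (-0.12), in DESeq2 (-0.12), with no filter (-0.13), in a fit of these 2 groups (-0.12) and without YKL-06-102 replicate 2 (-0.15). KLF4 differed by -0.30 ± 0.171 (adjusted p = 0.238), with an interval of -0.66 to 0.047 that holds both no difference and a sizeable one.

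For BSJ-03-123 against palbociclib, 0 members were called, against 0.155% of all genes, and 3 of 10 did not overlap against 15.2%. At an unadjusted p under 0.05 in edgeR there were 2 members, KLF4 and CEBPD, limma-voom called 0, and DESeq2 called 0 of the 8 to which it gave an adjusted p. The share of all tested genes under that unadjusted threshold is not given here, so these 2 have no background to be read against. SPI1 differed by -0.0012 ± 0.037, with an interval of -0.077 to 0.075, which is narrow beside the difference of YKL-06-102 from either compound. KLF4 was higher with BSJ-03-123 by 0.59 ± 0.198 (interval 0.19 to 1.00), with an unadjusted p of 0.00549 and an adjusted p of 0.312 in edgeR. CEBPD was higher by 0.18 ± 0.068 (interval 0.042 to 0.32, adjusted p = 0.41), and CEBPE differed by -0.061 ± 0.152 (interval -0.37 to 0.25). The libraries of KLF4, CEBPD and RUNX1 did not overlap, with those of BSJ-03-123 above.

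**Figure D4:**
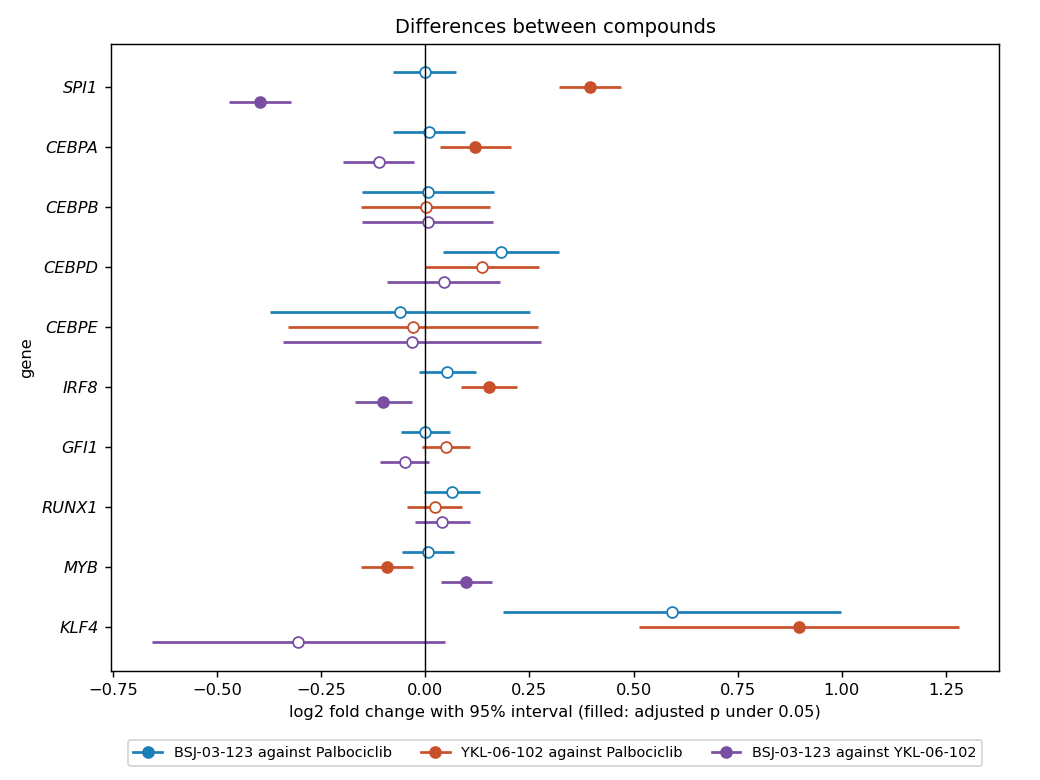
Log2 difference of each member between compounds with its 95% interval for the 3 pairs, filled where the adjusted p is under 0.05. SPI1 differs by 0.40 between YKL-06-102 and palbociclib and by -0.0012 between BSJ-03-123 and palbociclib.

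Ratios of read counts inside a library need no scaling between libraries. The ratio of SPI1 to GFI1 reads was 0.961, 1.04 and 0.909 with DMSO, 1.06, 1.06 and 1.02 with BSJ-03-123, 1.03, 1.08 and 1.04 with palbociclib, and 1.31, 1.34 and 1.35 with YKL-06-102. The ratio of SPI1 to MYB reads was 0.497, 0.566 and 0.466 with DMSO, 0.542, 0.544 and 0.527 with BSJ-03-123, 0.523, 0.551 and 0.549 with palbociclib, and 0.742, 0.751 and 0.780 with YKL-06-102. For SPI1 to CEBPA the ratio was 0.858, 0.832 and 0.855 with DMSO, 0.883, 0.855 and 0.839 with BSJ-03-123, 0.871, 0.896 and 0.828 with palbociclib, and 1.00, 1.07 and 1.07 with YKL-06-102. In all 3 ratios the YKL-06-102 libraries were above the 9 others. Such a ratio does not remove a library's trend over GC content, and SPI1 has 65.1% GC beside 56.1% for GFI1, 43.9% for MYB and 65.9% for CEBPA. The part of GC content in the ratios was not tested. The 2-sided exact permutation p of YKL-06-102 against DMSO was 0.1 for each ratio, the smallest that 3 libraries against 3 allow.

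**Figure D5:**
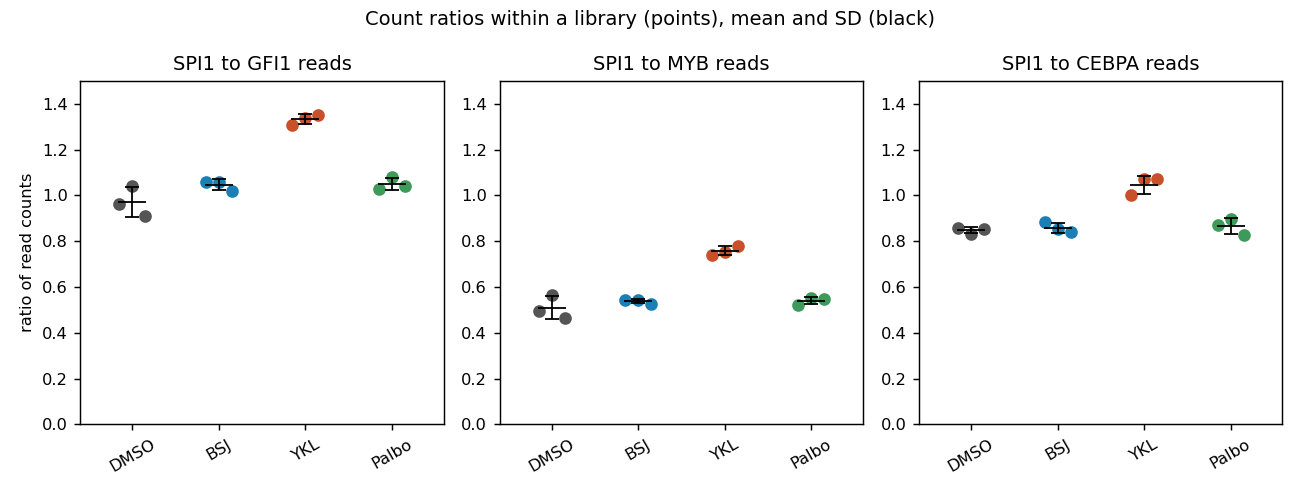
Ratio of SPI1 reads to GFI1, MYB and CEBPA reads within each library (points), with the mean and SD of each group of 3, where BSJ, YKL and Palbo stand for BSJ-03-123, YKL-06-102 and palbociclib. With YKL-06-102 the ratio to GFI1 lies between 1.31 and 1.35, above the other 9 libraries, whose highest is 1.08.

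DMSO replicate 2 bears on all comparisons against DMSO. On the log2 scale it was above the mean of the other 2 DMSO libraries by 0.34 for CEBPB, 0.29 for KLF4, 0.22 for CEBPD, 0.21 for CEBPA, 0.17 for SPI1 and 0.078 for IRF8, and it differed by -0.088 for RUNX1, -0.070 for MYB, 0.0062 for CEBPE and 0.0059 for GFI1, where the median size over all genes of at least 2 log2 CPM was 0.085. Over all genes this difference moved with the GC content of the transcripts, from a median of -0.095 for 1737 genes under 40% GC to 0.12 for 1481 genes over 60%. CEBPD, CEBPB, CEBPA, SPI1 and CEBPE have 70%, 66.2%, 65.9%, 65.1% and 62.9% GC, GFI1, KLF4 and IRF8 have 56.1%, 55% and 52%, and RUNX1 and MYB have 47.1% and 43.9%. The differences of CEBPE and KLF4 rest on 29 to 45 and 22 to 38 reads a DMSO library. Both genes lie under 2 log2 CPM, outside the genes over which these medians were taken. The part of GC content in the difference of single members was not tested.

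Among 30 tested textbook targets of the members, of 37 listed, BSJ-03-123 had 12 higher and 1 lower, YKL-06-102 had 17 and 2, and palbociclib had 13 and 1. Over all tested genes, the shares called higher and lower were 12.4% and 15.7%, 15.6% and 21.3%, and 15.6% and 17.6% in the same order. The median log2 fold changes were 0.12, 0.14 and 0.10, beside 0.0075, -0.017 and 0.014 over all tested genes. CSF1R, a classic PU.1 target that encodes the M-CSF receptor, was at 63.0 ± 1.93 CPM with DMSO and rose on the log2 scale by 0.55 ± 0.040, 1.19 ± 0.038 and 0.51 ± 0.040 in the order BSJ-03-123, YKL-06-102 and palbociclib (adjusted p of 7.77e-12, 8.94e-20 and 3.19e-11). CIITA, the master regulator of MHC class II genes, rose by 0.75 ± 0.056 with YKL-06-102 (adjusted p = 8.45e-12), beside 0.13 (adjusted p = 0.117) and 0.056 (adjusted p = 0.515) with BSJ-03-123 and palbociclib. IL6R, the interleukin-6 receptor, rose by 0.19, 0.39 and 0.10 with BSJ-03-123, YKL-06-102 and palbociclib. BTK, a kinase of B cells and myeloid cells, rose by 0.18 with BSJ-03-123 and 0.21 with palbociclib, with 0.043 (adjusted p = 0.304) for YKL-06-102. PTPRC, which encodes CD45, rose by 0.13 and 0.25 with BSJ-03-123 and palbociclib, and its value with YKL-06-102 was -0.25 (adjusted p = 3.09e-05).

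Of 31 tested partners and regulators of the members, of 33 listed, BSJ-03-123 had 5 higher and 10 lower, YKL-06-102 had 4 and 16, and palbociclib had 2 and 9, with median log2 fold changes of -0.051, -0.10 and -0.039. The shares of all tested genes called in either direction were 28.1%, 36.9% and 33.3%, and 11 of 31 with palbociclib is near the last of these. By direction, the shares of all tested genes higher and lower were 12.4% and 15.7%, 15.6% and 21.3%, and 15.6% and 17.6%. The medians over all tested genes were 0.0075, -0.017 and 0.014. CBFB, the partner subunit of RUNX1, changed by -0.22 ± 0.034, -0.25 ± 0.033 and -0.26 ± 0.033 with BSJ-03-123, YKL-06-102 and palbociclib (adjusted p of 1.04e-05, 4.97e-07 and 5.43e-07). HDAC2, a histone deacetylase found in corepressor complexes, changed by -0.26, -0.19 and -0.27, SIN3A, a corepressor scaffold, by -0.16, -0.19 and -0.18, and CEBPZ by -0.19, -0.16 and -0.24, all past the test. TRIB1, a pseudokinase that targets C/EBPα for degradation, rose with YKL-06-102 by 0.57 ± 0.081 (adjusted p = 1.24e-06), beside 0.15 (adjusted p = 0.212) and -0.075 (adjusted p = 0.557) with BSJ-03-123 and palbociclib. TET2, which oxidises methylated cytosine, rose by 0.34 with BSJ-03-123 and 0.23 with palbociclib, with 0.096 (adjusted p = 0.172) for YKL-06-102.

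Of 39 tested other haematopoietic transcription factors, of 51 listed, BSJ-03-123 had 9 higher and 4 lower, YKL-06-102 had 15 and 9, and palbociclib had 9 and 6, with median log2 fold changes of 0.042, 0.0034 and 0.053. Beside 28.1%, 36.9% and 33.3% of all tested genes called in either direction, the 13 and 15 of 39 called with BSJ-03-123 and palbociclib are near the background. By direction, the shares of all tested genes higher and lower were 12.4% and 15.7%, 15.6% and 21.3%, and 15.6% and 17.6%. The medians over all tested genes were 0.0075, -0.017 and 0.014. MYBL2, the cell-cycle relative of MYB, changed by -1.62 ± 0.040, -1.19 ± 0.038 and -1.77 ± 0.040 with BSJ-03-123, YKL-06-102 and palbociclib (adjusted p of 1.11e-22, 9.35e-20 and 1.12e-23). PRDM1, a repressor that drives plasma cell differentiation, rose with YKL-06-102 by 1.26 ± 0.129 (adjusted p = 2.64e-09), beside 0.36 (adjusted p = 0.0622) and 0.34 (adjusted p = 0.0629) with the other compounds. RARA, a retinoic acid receptor, rose by 0.45 with YKL-06-102 and 0.14 with BSJ-03-123, with 0.096 (adjusted p = 0.0671) for palbociclib. NFE2 rose by 0.37 with BSJ-03-123 and 0.47 with palbociclib, with 0.016 (adjusted p = 0.854) for YKL-06-102, and KLF13 rose by 0.17, 0.11 and 0.20 with BSJ-03-123, YKL-06-102 and palbociclib. Between BSJ-03-123 and palbociclib, 0 of the 100 tested genes of the 3 lists were called in edgeR, beside 0.155% of all tested genes. DESeq2 called 1 of the 83 to which it gave an adjusted p, and limma-voom called 0. In edgeR 13 of the 100 had an unadjusted p under 0.05. The share of all tested genes under that threshold is not given here, so nothing is read from the 13.

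The genes whose pattern was most like that of a called member were found among 10368 genes by Pearson's r of log2 CPM over the 12 libraries, which fall into 4 groups, so r is a description. ARHGEF10L (r = 0.989) and BCL9L (r = 0.988) were most like SPI1, with log2 fold changes with YKL-06-102 of 0.58 ± 0.063 and 0.80 ± 0.053. TSPO (0.972) and SHKBP1 (0.957) were most like CEBPA, ZNF746 (0.952) and MICALL1 (0.946) most like IRF8, and FGR (0.966) and VILL (0.958) most like CEBPE. For KLF4 they were CHST2 and SLC41A1, both at 0.947, and MBNL1 (0.986) was most like MYB and ARID2 (0.933) most like RUNX1.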

How the data were processed

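The authors deposited a table of raw read counts per Ensembl gene for the 12 libraries. Per the labels' protocols, polyadenylated RNA went into stranded TruSeq libraries. Per the submitters' processing notes, the tools were Trimmomatic 0.36, STAR 2.5.2b and HTSeq, with hg38. The sources used here do not give the HTSeq version, the annotation release or the strand setting.

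Genes were named, placed and given exon lengths and GC content with GENCODE 29 (GRCh38, the same assembly as hg38). A single edgeR 4.0.16 fit in R 4.3.3 took all 12 libraries (TMM factors, filterByExpr with minimum count 10 and minimum total count 15, quasi-likelihood test, 2-sided, 8 residual degrees of freedom). Calls needed an adjusted p (Benjamini-Hochberg, over the 14214 genes of a contrast) under 0.05. Standard errors and 95% intervals are Wald values. Alternatives used DESeq2 1.42.0 size factors or test, limma 3.58.1 with voom, library totals, no filter, fits of 2 groups, a replicate block and leaving out each library. A fit with trends over GC content removed was added after seeing the data. The script was tested on simulated data.

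The members and the 3 gene lists were chosen with earlier results of these data known. Named beside the members are at most 3 called genes of each list by smallest p in each comparison against DMSO, and the 2 genes most like each called member by r of log2 CPM (prior count 2, average log2 CPM of at least 2). A few genes that this rule names are not reported here.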

Additional observations from a re-analysis of the deposited data

How the results depend on the processing

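Over the alternatives, 774 values of the members kept their side of the threshold, 39 lost a call, 27 gained one and 0 reversed. Without single libraries, the values of calls that were lost in some of these fits ranged, for BSJ-03-123 against DMSO, from 0.063 to 0.13 for RUNX1, 0.49 to 0.72 for KLF4 and 0.50 to 0.75 for CEBPE. They ranged from -0.11 to -0.074 for MYB with YKL-06-102 against DMSO, from 0.11 to 0.16 for CEBPA and -0.098 to -0.060 for MYB between YKL-06-102 and palbociclib, and from -0.13 to -0.096 for IRF8 and 0.066 to 0.097 for MYB between BSJ-03-123 and YKL-06-102. The values of calls that were gained ranged, for BSJ-03-123 against DMSO, from 0.035 to 0.13 for SPI1, 0.010 to 0.13 for CEBPA, -0.0030 to 0.22 for CEBPB, 0.047 to 0.19 for CEBPD and 0.036 to 0.082 for IRF8, for palbociclib from 0.038 to 0.13 for SPI1, 0.0031 to 0.12 for CEBPA and -0.0084 to 0.21 for CEBPB, for YKL-06-102 from -0.0035 to 0.24 for CEBPB and 0.045 to 0.090 for RUNX1, and between BSJ-03-123 and YKL-06-102 from -0.15 to -0.12 for CEBPA. With library totals only, SPI1 (0.12) and IRF8 (0.10) with BSJ-03-123, SPI1 with palbociclib (0.12) and RUNX1 with YKL-06-102 (0.091) gained a call, and MYB with YKL-06-102 (-0.066) lost it. With no filter on low counts, SPI1 with palbociclib (0.096) and CEBPA between BSJ-03-123 and YKL-06-102 (-0.13) gained a call, and MYB lost it with YKL-06-102 (-0.073), between YKL-06-102 and palbociclib (-0.083) and between BSJ-03-123 and YKL-06-102 (0.083). DESeq2 size factors gained CEBPA between BSJ-03-123 and YKL-06-102 (-0.12) and lost MYB between YKL-06-102 and palbociclib (-0.080), and DESeq2 itself gained that CEBPA call (-0.12) and lost KLF4 with BSJ-03-123 (0.60). Fits of 2 groups lost RUNX1 with BSJ-03-123 (0.092) and MYB with YKL-06-102 (-0.083) and gained that CEBPA call (-0.12). With GC trends removed, CEBPA (0.089), CEBPD (0.16), IRF8 (0.075) and SPI1 (0.10) with BSJ-03-123, CEBPA (0.095) and SPI1 (0.12) with palbociclib and RUNX1 with YKL-06-102 (0.082) gained a call, and MYB with YKL-06-102 (-0.048), CEBPA between YKL-06-102 and palbociclib (0.064) and IRF8 between BSJ-03-123 and YKL-06-102 (-0.074) lost it. The cause was not tested. Between BSJ-03-123 and palbociclib, the 22 genes called became 64 with no filter, 43 in DESeq2, 75 in a fit of the 2 groups, 70 with GC trends removed, and 3 to 14 without single libraries. With library totals, the calls against DMSO split into 2852 higher and 1765 lower (BSJ-03-123), 2877 and 2422 (YKL-06-102) and 3396 and 1949 (palbociclib), against 1763 and 2234, 2215 and 3034, and 2224 and 2507 with TMM. The replicate numbers were not taken to pair the libraries, since in none of the 6 comparisons were all 3 correlations of deviations over 0.1 (range -0.163 to 0.227, with 0.0868, 0.227 and 0.203 for BSJ-03-123 against DMSO). As a hint from the data, 8 of 12 libraries correlated best with their own number. The replicate block gave 3991, 5244, 4687, 26, 3500 and 2839 genes called in the 6 comparisons and changed no call of a member.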
